A study of Mus musculus with 54 samples.

Results

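The NR4A and EGR immediate early factors and the NAB corepressors were followed as 8 genes chosen by name: Nr4a1, Nr4a2, Nr4a3, Egr1, Egr2, Egr3, Nab1 and Nab2. They were chosen for what they are known to do in T cells, with earlier results of these data known, and no measured value entered the choice. All 8 had reads in both count tables, among 32290 genes tested in the CD5/CD6 experiment and 27780 in the LAT experiment.

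RNA was sequenced from naive CD4+ T cells of C57BL/6 mice, taken from lymph nodes and spleens, at 0 h (RNA extracted right after purification) and after 4 h and 20 h with plate-bound anti-CD3 at 3 µg/ml and soluble anti-CD28 at 1 µg/ml. The CD5/CD6 experiment compared WT, Cd5-/-, Cd6-/- and Cd5-/-Cd6-/- cells in 36 libraries, and the LAT experiment compared WT (hDTR+) and Lat-/- (hDTR-) cells in 18 libraries, with 3 libraries in each condition. Cells of the CD5/CD6 experiment were enriched with a magnetic kit from germline knockouts, the Cd5-/-Cd6-/- mice carrying 1 deletion that reaches from Cd5 to Cd6. In the LAT experiment, a flow sorter separated both kinds of cell from Lat fl-dtr maT-Cre mice, in which Cre acts in T cells and cells that keep the allele keep human DTR, so the WT cells of that experiment carry the floxed allele and come from mice with Cre. The mice were adult and organs were pooled. The study describes the samples of a condition as prepared independently, without saying whether they came from separate mice, so p-values measure the spread between these preparations.

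NR4A1, NR4A2 and NR4A3 are orphan nuclear receptors whose genes are transcribed soon after the TCR is engaged, and Nr4a1 is widely used as a reporter of TCR signal strength. They are known to be controlled by calcium, through MEF2 and CREB, and have been linked to T cell tolerance and exhaustion. EGR1, EGR2 and EGR3 are zinc finger factors induced through ERK and SRF with its ternary complex partners. NAB1 and NAB2 bind EGR proteins and repress their activity, and Nab2 is itself a known EGR target, which makes it part of a feedback loop. The adaptor LAT carries TCR signals to PLC-γ and to the Ras and ERK pathway, whereas CD5 and CD6 are surface receptors that act next to the TCR.

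In the GRCm38 annotation, Nr4a1 (ENSMUSG00000023034.7) lies at chr15:101254269-101274795 on the plus strand, Nr4a2 (ENSMUSG00000026826.13) at chr2:57106830-57124003 on the minus strand and Nr4a3 (ENSMUSG00000028341.9) at chr4:48045153-48086447 on the plus strand. Egr1 (ENSMUSG00000038418.7) lies at chr18:34859823-34864984, Egr2 (ENSMUSG00000037868.15) at chr10:67535475-67542188 and Egr3 (ENSMUSG00000033730.4) at chr14:70077203-70082614, all on the plus strand. The corepressor genes are on the minus strand, Nab1 (ENSMUSG00000002881.14) at chr1:52457294-52500679 and Nab2 (ENSMUSG00000025402.12) at chr10:127660918-127668568. The exons of 7 of the 8 genes share no base with another gene. Of the 2941 exonic bases of Nab2, 1241 overlap genes of the opposite strand. The use of strand in counting was not given in the sources used here, so Nab2 reads in those bases are uncertain.

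Libraries held 20554354 to 45222554 reads in the CD5/CD6 experiment and 17784644 to 28501095 in the LAT experiment, and 3 reads, the floor used here, corresponded to 0.0663 to 0.146 and to 0.105 to 0.169 CPM (counts scaled to library size). Lat transcripts in Lat-/- cells were at 1.84% to 17.5% of the WT mean of the same time. The sorted WT cells that set this mean had less Lat than enriched WT cells. At 0 h they had 214 to 292 CPM against 649 to 792 CPM, and at 20 h 92.2 to 105 CPM against 459 to 631 CPM. The reason for this difference was not tested. The targeted genes were below 1 CPM in all 9 Cd5-/-Cd6-/- libraries. At 0 h, 2 libraries went against their labels. The library labelled Cd5-/- number 2 had 719 CPM of Cd5, where the other two of that label had 129 and 105 CPM, and the library labelled Cd6-/- number 2 had 1200 CPM of Cd6, where the other two had 349 and 251 CPM. The lowest, middle and highest Cd6 values of the Cd5-/- libraries at 0 h were 329, 1080 and 1300 CPM. Those of Cd5 in the Cd6-/- libraries at 0 h were 172, 719 and 724 CPM. Whether the 2 libraries were exchanged was not tested. All libraries were kept under their labels, and results that rest on these 2 are also given without them. Genes of T cells were high in every library (7 of 7 markers with reads; summed level of 5490 to 6720 CPM in WT and Cd5-/-Cd6-/- cells at 0 h, and 6330 to 8350 CPM in sorted WT and Lat-/- cells). Enriched WT cells also had B cell markers summing to 119 to 629 CPM and myeloid markers to 143 to 321 CPM at 0 h. At 20 h these sums were 2.06 to 3.54 and 2.63 to 3.76 CPM. Sorted WT cells had 3.1 to 4.8 and 4.83 to 10 CPM at 0 h. The part of B cell and myeloid RNA in the results was not tested. In these bulk samples, fewer cells of a type and less RNA per cell cannot be told apart.

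The sequences just upstream of 4 of the genes are shown because these genes rose at 4 h in every genotype measured and have CRE cores in them. Nab2 rose too, but its window held none of the motifs searched and is not printed. The sequences were taken from the RefSeq promoter table of GRCm38.p6, which matched 6 of the 8 genes (all but Egr1 and Egr3), and only bases outside annotated exons are printed, 5′ to 3′ on the strand of the gene. Capitals mark CRE cores (TGACG or, on the other strand, CGTCA) and the EGR site (GCGNGGGCG, either strand). The Nr4a1 stretch is chr15:101266596-101266845 on the plus strand, inside the span of the longest gene model. The Nr4a2 stretch is chr2:57124004-57124253 on the minus strand. The Nr4a3 stretch is chr4:48045055-48045152 on the plus strand, and the Egr2 stretch is chr10:67537619-67537868 on the plus strand, again inside the gene span, from 1 of 5 windows that belong to different starts of Egr2.
Nr4a1: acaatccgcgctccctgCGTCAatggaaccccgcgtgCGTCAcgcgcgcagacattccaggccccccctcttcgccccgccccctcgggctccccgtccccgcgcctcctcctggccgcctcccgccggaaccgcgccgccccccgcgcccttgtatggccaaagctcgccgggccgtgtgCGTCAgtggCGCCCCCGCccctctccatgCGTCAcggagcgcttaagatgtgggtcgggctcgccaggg
Nr4a2: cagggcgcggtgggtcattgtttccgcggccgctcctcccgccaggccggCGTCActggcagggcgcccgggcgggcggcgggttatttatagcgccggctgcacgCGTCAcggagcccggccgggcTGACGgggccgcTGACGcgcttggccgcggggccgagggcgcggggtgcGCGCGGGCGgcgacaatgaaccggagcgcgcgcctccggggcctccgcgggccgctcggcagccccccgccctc
Nr4a3: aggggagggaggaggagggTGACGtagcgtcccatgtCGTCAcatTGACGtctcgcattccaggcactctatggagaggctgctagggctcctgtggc
Egr2: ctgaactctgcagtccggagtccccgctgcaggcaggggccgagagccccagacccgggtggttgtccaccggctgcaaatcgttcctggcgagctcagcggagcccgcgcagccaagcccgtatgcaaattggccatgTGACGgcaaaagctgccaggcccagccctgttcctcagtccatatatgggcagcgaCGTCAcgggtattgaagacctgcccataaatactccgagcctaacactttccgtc

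The 3 NR4A windows of 250 upstream bases each held 4 CRE cores, the 5 bases that CREB and related factors bind within the longer CRE. Of 32851 windows of the same length in 27025 genes, 17.8% held at least 1 core and 0.137% (45 windows) held at least 4. The cores of Nr4a1 began 233, 213, 69 and 40 bases upstream of its start, those of Nr4a2 200, 144, 123 and 111 bases, and those of Nr4a3 231, 213, 205 and 147 bases, of which the last lies in an annotated exon and is not printed. For Egr2, 3 of its 5 windows, which overlap, held the same 2 cores, and the other two held none. The Nab1 window held 1 core and the Nab2 window 0, and 3.9% of all windows held at least 2. The palindromic CRE (TGACGTCA, which contains a core on each strand) was in 1.55% of windows and in none of these genes. The EGR site was in 4.7% of windows. It occurred 3 times in the Nab1 window (0.14% of windows held at least 3), and once each in those of Nr4a1 and Nr4a2. The CArG box, the SRF site, was in 1.47% of windows and in 4 of the 5 Egr2 windows, and the NR4A element NBRE (AAAGGTCA) was in 1.34% and in none of these genes. The matches describe letters, and binding was not measured.

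In WT cells, 7 of the 8 genes rose at 4 h in both experiments, and only Nab1 did not pass the thresholds in either. A gene was called when its fold change exceeded 2 and its adjusted p was under 0.05 in edgeR's quasi-likelihood test, and 8.24% of all genes in the CD5/CD6 experiment and 8.05% in the LAT experiment were called higher. The median log2 fold change of the 8 genes was 4.97 and 5.52, against 0 for all genes in each experiment.

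Among the NR4A genes, Nr4a1 had the most transcripts per length at each time. In the enriched WT libraries 1, 2 and 3, Nr4a1 was at 232, 202 and 131 CPM at 0 h, 6690, 8010 and 7510 CPM at 4 h, and 370, 369 and 327 CPM at 20 h. The 4 h libraries stood far above the others, a 39.4-fold rise (log2 5.30 ± 0.29 SE, adjusted p = 8.83e-27). Nr4a2, nearly silent before stimulation, went from 5.25, 2.41 and 1.96 CPM to 876, 1160 and 826 CPM, which was the highest fold change of the 8 genes (300-fold, log2 8.23 ± 0.35, adjusted p = 4.18e-33, with log2 8.83 without replicate 1). Nr4a3 went from 25.5, 22.8 and 34.2 CPM to 3220, 4470 and 3350 CPM (134-fold, adjusted p = 1.38e-39). The sorted WT cells gave the same order of fold changes, 62.4-fold for Nr4a1, 477-fold for Nr4a2 and 149-fold for Nr4a3.

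The EGR genes rose less, and from different starting levels. Egr1 was already at 146, 131 and 143 CPM in enriched WT cells at 0 h and reached 1470, 1430 and 1420 CPM at 4 h, with little spread among libraries (10.3-fold, log2 3.36 ± 0.18, adjusted p = 2.22e-27). Egr3 went from 37.7, 36.4 and 57.4 CPM to 905, 1160 and 1200 CPM (24.8-fold, adjusted p = 1.21e-33). Egr2 was the scarcest of the 8 genes, at 0.166, 0.241 and 0.655 CPM before stimulation and 19.3, 18.1 and 19.8 CPM at 4 h (50.9-fold, adjusted p = 4.18e-25). Its low level means that each 0 h value rests on few reads, and its log2 fold change of 5.67 was 6.48 without replicate 3. In sorted WT cells, where the 0 h libraries held 11, 1 and 7 Egr2 reads, the 4 h libraries held 321, 391 and 392 (64.3-fold, log2 6.01, or 6.68 without replicate 1 and 5.40 without replicate 2). Egr1 and Egr3 rose 13.8-fold and 33.8-fold there.

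The corepressors parted from each other. Nab2, the inducible one, went from 68.9, 61.1 and 84.7 CPM to 331, 342 and 359 CPM in enriched WT cells (4.81-fold, log2 2.26 ± 0.16, adjusted p = 6.88e-21) and rose 6.03-fold in sorted WT cells. Nab1 was at 133, 121 and 118 CPM at 0 h and 127, 157 and 155 CPM at 4 h, and its libraries overlapped (log2 0.24 ± 0.15, adjusted p = 0.291). In sorted WT cells the Nab1 libraries at 4 h were all above those at 0 h, but by less than the fold threshold (log2 0.76, adjusted p = 3.82e-06).

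By 20 h all 8 genes were lower than at 4 h in both WT groups, where 12.2% (enriched) and 9.32% (sorted) of all genes were called lower. The steepest decline in enriched cells was that of Nr4a2 (log2 -5.43, to 17.2, 29.4 and 19.7 CPM) and the shallowest were those of Nab1 (-1.35) and Nab2 (-1.73). Egr3 kept the most of its 4 h level among the induced factors (log2 -2.16, to 293, 240 and 200 CPM).

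Against 0 h, 4 genes were still called higher at 20 h in enriched WT cells and 5 in sorted WT cells (12.3% and 10.8% of all genes called higher), and Nab1 was called lower in both (17.3% and 12.7% called lower). Nr4a2, Nr4a3, Egr2 and Egr3 were called in both experiments, with log2 fold changes of 2.80, 3.33, 2.25 and 2.48 in enriched cells and 3.58, 3.39, 3.05 and 3.06 in sorted cells. In enriched cells the estimate was 3.49 for Nr4a2 without replicate 1 and 3.07 for Egr2 without replicate 3. Nr4a1 was called only in sorted cells (log2 2.00, from 125, 85.9 and 167 CPM to 506, 520 and 484 CPM); in enriched cells its estimate of 0.92 (adjusted p = 0.0012) missed the fold threshold, and the difference between the experiments was not tested. Egr1 had returned close to its starting level in enriched cells (168, 174 and 128 CPM, log2 0.16, adjusted p = 0.521). Nab1 fell to 59.0, 61.1 and 52.0 CPM there (log2 -1.11, adjusted p = 3.37e-09) and to 47.6, 47.8 and 41.6 CPM in sorted cells (log2 -1.16).

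**Figure D1:**
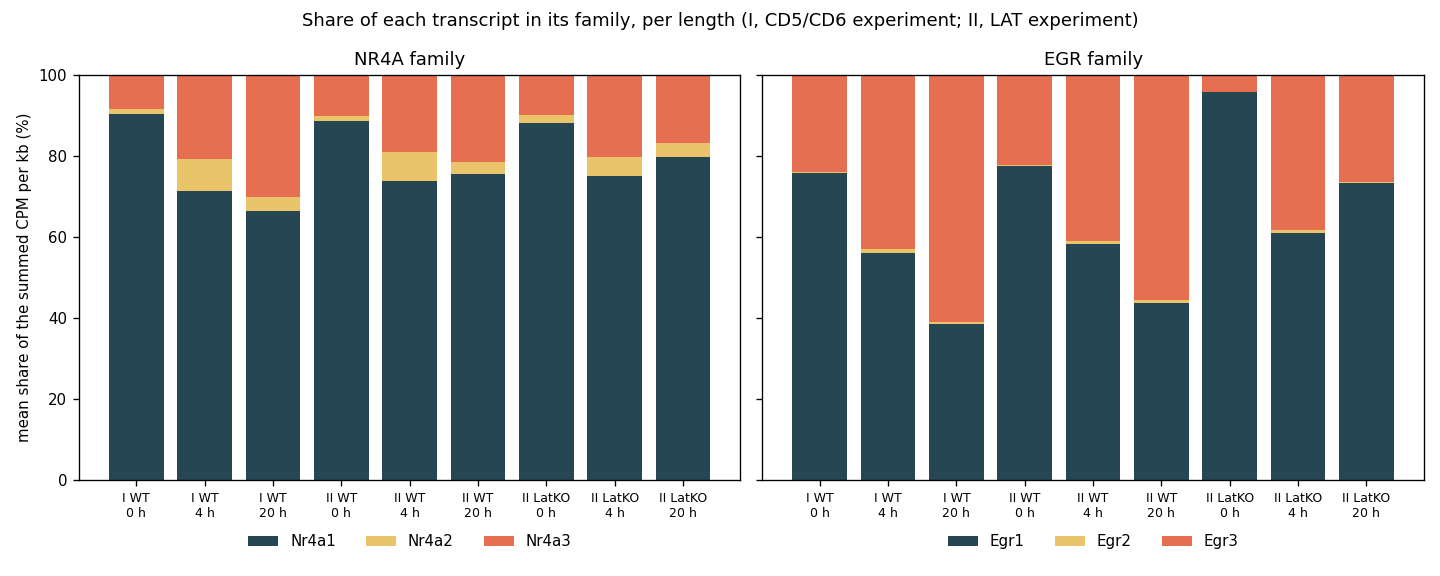
Share of each gene in the summed NR4A or EGR transcripts, in percent of CPM per kilobase of exon, as means over 3 libraries. Shown are enriched WT, sorted WT and Lat-/- cells at 0, 4 and 20 h. Nr4a1 made up 90.3%, 71.4% and 66.4% of NR4A transcripts in enriched WT cells at 0, 4 and 20 h, and Egr3 took over from Egr1 as the main EGR transcript between 4 h and 20 h in WT cells but not in Lat-/- cells.

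Scaled by exon length, the make-up of both families shifted with time. Summed NR4A transcripts of enriched WT cells went from 58.9 to 2960 and 153 CPM per kilobase at 0, 4 and 20 h, and summed EGR transcripts from 41.3 to 574 and 91.0. Nr4a3 went from 8.41% of the NR4A sum at 0 h to 20.7% at 4 h and 30.0% at 20 h, and Nr4a2 from 1.29% to 7.92% and 3.57%. In the EGR sum, Egr1 went from 75.9% to 56.1% and 38.5%, while Egr3 went from 23.9% to 42.9% and 60.9% and Egr2 stayed at or below 0.98%. These shares are descriptions with no test.

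In Lat-/- cells before stimulation, 6 of the 8 genes were called lower than in sorted WT cells, where 0.814% of all genes were. All Lat-/- libraries were below all WT libraries for 7 of the 8 genes, a pattern seen in 4.7% of all genes. The fit of the LAT experiment over all genes with a read gave each gene the spread of genes in general (infinite prior degrees of freedom), whatever the scatter of its own libraries, so its standard errors are small. Beside its calls, the estimate ± SE and adjusted p are therefore given from the fit restricted by edgeR's filterByExpr to 13928 genes, in which a gene's own scatter counts. Of the 11 settings compared, this one gave each gene called lower in Lat-/- cells its highest adjusted p, at each time.

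Egr3 differed most. It was at 38.0, 23.1 and 34.8 CPM in WT cells and 1.33, 0.979 and 1.5 CPM in Lat-/- cells at 0 h, with no overlap and little scatter (-4.64 ± 0.38 on the log2 scale after filtering, adjusted p = 7.04e-07). Nr4a3 was at 27.8, 20.3 and 22.1 CPM against 3.16, 2.47 and 2.40 CPM (-3.13 ± 0.35, adjusted p = 4.63e-05). Nab2, at 62.6, 76.8 and 63.4 CPM against 8.14, 6.57 and 11.6 CPM, was lower by a similar amount (-2.95 ± 0.20, adjusted p = 6.23e-08). These 3 genes thus had low and even levels across the Lat-/- libraries.

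Nr4a1 and Egr1 scattered more. Nr4a1 was at 125, 85.9 and 167 CPM in WT cells and at 15.8, 6.99 and 54.6 CPM in Lat-/- cells (-2.29 ± 0.53, adjusted p = 0.0413, and -3.22 over all genes without replicate 3), and Egr1 at 128, 84.3 and 127 CPM against 31.1, 16.6 and 55.8 CPM (-1.71 ± 0.33, adjusted p = 0.0117). In both genes Lat-/- library 2 was lowest and library 3 highest. Lat itself followed that order in the Lat-/- libraries, with 15.2, 11.6 and 19.1 CPM left. The WT libraries had that order for Nr4a1 as well but not for Egr1, and their Lat was at 292, 214 and 241 CPM, in another order. Nr4a2 was at 1.92, 1.61 and 1.82 CPM against 0.691, 0.14 and 0.976 CPM. It was called over all genes (log2 -1.53, adjusted p = 5.29e-07) but neither after filtering (-1.54 ± 0.56, adjusted p = 0.328) nor with DESeq2 (adjusted p = 0.175). Egr2, with 19 reads in 3 WT libraries and 3 in 3 Lat-/- libraries, was not called (ratio of CPM 0.186, 95% counting interval 0.0353 to 0.633, counting error only, adjusted p = 0.106), nor was Nab1 (104, 96.1 and 105 CPM in WT against 73.6, 89.3 and 85.0 CPM in Lat-/- cells, log2 -0.30, adjusted p = 0.786).

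**Figure D2:**
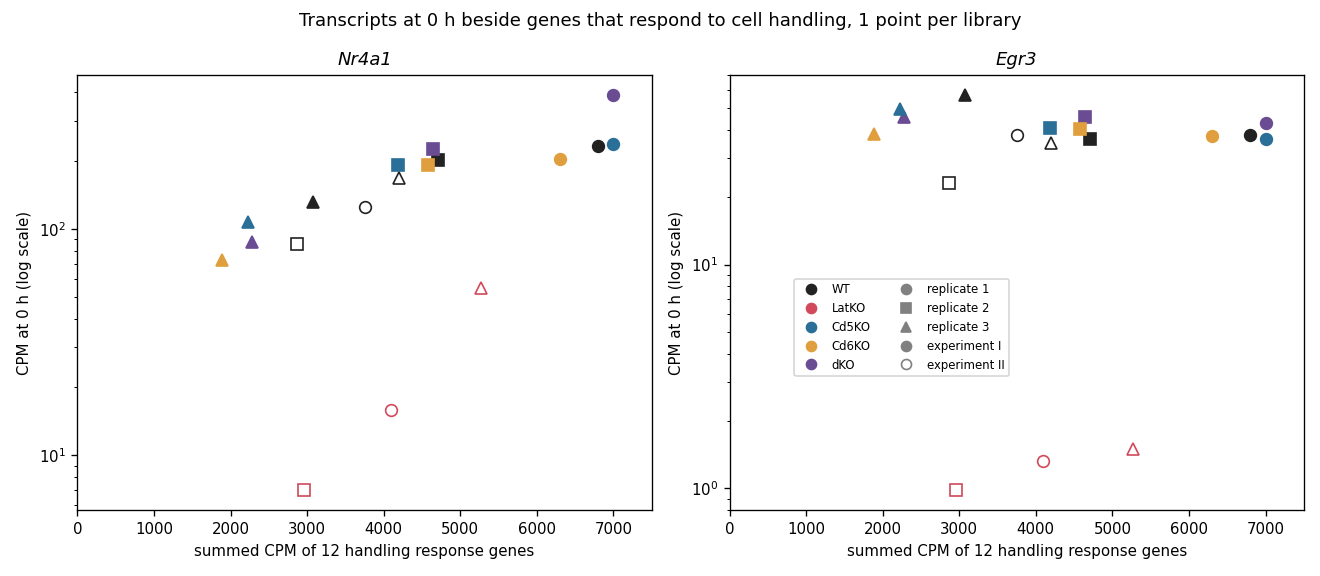
Nr4a1 and Egr3 in CPM at 0 h against the summed CPM of 12 handling response genes, 1 point for each library, filled for the CD5/CD6 experiment and open for the LAT experiment. Nr4a1 in Lat-/- libraries lies at 6.99 to 54.6 CPM and Egr3 at 0.979 to 1.5 CPM.

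At 0 h, a set of 12 genes known to respond to tissue handling (Fos, Fosb, Jun, Junb, Ier2, Atf3, Dusp1, Hspa1a, Hspa1b, Dnajb1, Hspa8 and Socs3) varied between libraries of the same group. Its summed level was 6800, 4710 and 3070 CPM in enriched WT libraries 1, 2 and 3. Nr4a1 had the same order of libraries as this sum in 6 of 6 groups at 0 h, Nr4a2 and Nab1 in 4, Egr1 in 3, Nab2 in 2, Nr4a3 and Egr3 in 1 and Egr2 in 0. The sums of sorted cells were 3750, 2870 and 4200 CPM in WT and 4090, 2960 and 5270 CPM in Lat-/- libraries, and they overlapped between the genotypes. Regulatory T cell markers (3 of 3 with reads) summed to 71.1 to 109 CPM in WT and 23.3 to 40.7 CPM in Lat-/- libraries at 0 h, γδ T cell markers (6 listed) to 31.8 to 45.2 and 14.5 to 16.6 CPM, and NK cell markers (6 listed) to 70.4 to 96.3 and 122 to 160 CPM. Markers of naive T cells (6 of 6) were alike, at 6480 to 6830 and 6420 to 6830 CPM. Of 8 cell type marker lists, 4 did not overlap between the genotypes at 0 h, B cell markers (3.1 to 4.8 and 1.68 to 2.81 CPM) being the other one. The parts of these cells and of handling in the 0 h differences were not tested.

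**Figure D3:**
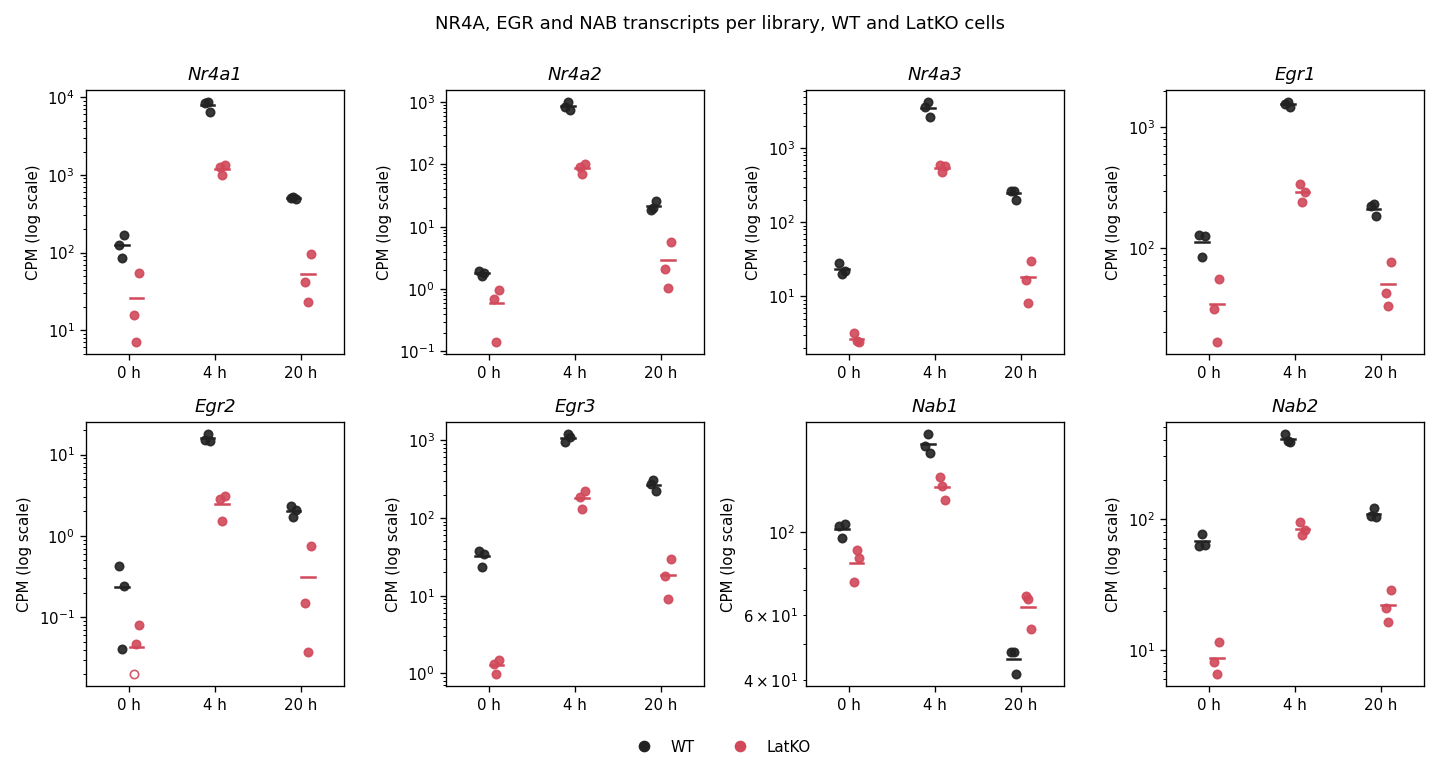
Level in CPM (log scale) of the 8 genes in each library of the LAT experiment at 0, 4 and 20 h, WT in black and Lat-/- (labelled LatKO) in red, with short lines for means. Lat-/- libraries lie below WT libraries at each time for the 7 genes other than Nab1, except for Egr2 at 0 h; the open Egr2 circle is a library with 0 reads, drawn at the bottom of the axis.

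At 4 h, 7 of the 8 genes were called lower in Lat-/- than in WT cells, the exception being Nab1, against 6.23% of all genes, and all 8 had every Lat-/- library below every WT library, as did 16.5% of all genes. Nr4a1 was at 8540, 8650 and 6430 CPM in WT and 1260, 1000 and 1340 CPM in Lat-/- cells (log2 -2.72 ± 0.53 after filtering, adjusted p = 0.000318). Nr4a2 showed the widest gap, 822, 1000 and 738 CPM against 90.5, 70.4 and 103 CPM (-3.28 ± 0.36, adjusted p = 6.39e-07). Nr4a3 was at 3620, 4200 and 2650 CPM against 598, 478 and 568 CPM (-2.68 ± 0.31, adjusted p = 1.16e-06). The 3 receptors were thus all still induced without LAT, to a level several times lower.

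The EGR genes and Nab2 were reduced to a like extent. Egr1 was at 1570, 1620 and 1470 CPM against 337, 239 and 292 CPM (-2.43 ± 0.33, adjusted p = 8.1e-06), and Egr3 at 954, 1200 and 1090 CPM against 185, 132 and 225 CPM (-2.58 ± 0.30, adjusted p = 1.42e-06). Egr2 was at 15.0, 17.9 and 14.8 CPM against 2.81, 1.53 and 3.12 CPM (-2.67 ± 0.46, adjusted p = 9.23e-05). Nab2, at 444, 391 and 388 CPM against 94.9, 75.2 and 82.4 CPM, was lower by 2.28 ± 0.19 on the log2 scale (adjusted p = 3.58e-08). Nab1 was at 170, 183 and 163 CPM against 140, 133 and 122 CPM (-0.39 ± 0.11, adjusted p = 0.00669), a difference under the fold threshold. At this time 7 of the 8 cell type marker lists did not overlap between the genotypes, all but B cell markers. The naive T cell markers summed to 2470 to 5250 CPM in WT and 8410 to 9980 CPM in Lat-/- libraries, regulatory T cell markers to 67.2 to 102 and 36.9 to 53.2 CPM, γδ T cell markers to 16.1 to 22.6 and 6.87 to 10.5 CPM, and NK cell markers to 57.5 to 66.6 and 80.2 to 86.3 CPM. Genes of T cells summed to 6710 to 7250 and 5450 to 6140 CPM, CD8 T cell markers to 16.9 to 22 and 24.6 to 29.4 CPM, and myeloid markers to 4.22 to 5.98 and 0.455 to 2.18 CPM. The part of these cells was not tested.

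Lat-/- cells nevertheless responded: 7 of the 8 genes were called higher at 4 h than at 0 h, where 3.08% of all genes were. Nr4a1 rose 46.3-fold, Nr4a2 142-fold, Nr4a3 205-fold, Egr1 8.37-fold, Egr3 141-fold and Nab2 9.57-fold, the adjusted p after filtering being at most 2.55e-06 for these 6 genes. Without replicate 3, the library with the highest Nr4a1 level at 0 h, the log2 fold change of Nr4a1 was 6.63 in place of 5.53 and that of Egr2 6.23 in place of 5.64. Egr2 went from 3 reads to 154 over the 3 libraries (ratio of CPM 56.3, 95% counting interval 18.9 to 276; adjusted p after filtering = 2.92e-05). Nab1 was at 140, 133 and 122 CPM at 4 h and was not called (log2 0.67, adjusted p = 0.000142).

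The size of the response, compared between genotypes with an interaction term, differed for 2 of the 8 genes at 4 h over all genes (4.37% of all genes had a greater and 4.34% a lesser log2 response in Lat-/- cells). Egr3 rose more steeply in Lat-/- cells, by 2.06 ± 0.47 on the log2 scale after filtering (adjusted p = 0.00267), from a lower level at 0 h to a lower level at 4 h. That call was made in 11 of 11 settings, with estimates of 1.90 to 2.38. Nr4a2 rose less steeply (-1.75, adjusted p = 9.95e-07 over all genes), a call that was lost after filtering (± 0.70, adjusted p = 0.0641) and with DESeq2 (adjusted p = 0.0672). For Nr4a1 (-0.43 ± 0.71), Nr4a3 (0.46 ± 0.44), Egr1 (-0.72 ± 0.45), Nab1 (-0.09 ± 0.16) and Nab2 (0.67 ± 0.27) the responses did not differ past the thresholds, and the 95% interval for Nr4a1, from -1.92 to 1.06, leaves room for sizeable differences either way. The Egr2 estimate was -0.37 (adjusted p = 1).

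**Figure D4:**
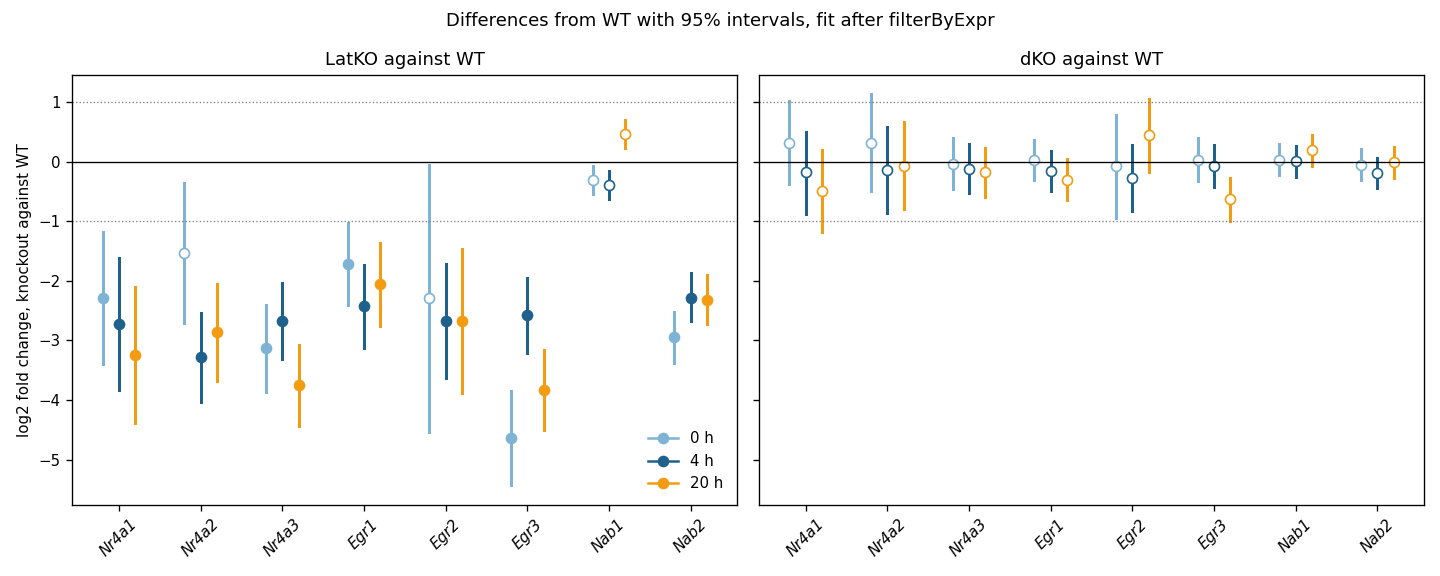
Log2 fold change against WT of the same experiment and time, with 95% intervals from the fit after filterByExpr, for Lat-/- cells (left, labelled LatKO) and Cd5-/-Cd6-/- cells (right, labelled dKO). Filled points were called both with and without that filter, dotted lines mark the fold threshold, and no gene was called in Cd5-/-Cd6-/- cells.

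At 20 h, 7 of the 8 genes were again called lower in Lat-/- cells (12.3% of all genes), and for those 7 every Lat-/- library was below every WT library (22.7% of all genes). Egr3 was at 272, 309 and 221 CPM in WT and 17.7, 8.94 and 29.5 CPM in Lat-/- cells (-3.83 ± 0.32, adjusted p = 6.13e-09), and Nr4a3 at 267, 269 and 202 CPM against 16.7, 8.09 and 30.0 CPM (-3.75 ± 0.32, adjusted p = 9.1e-09). Nr4a1 was at 506, 520 and 484 CPM against 41.1, 23.0 and 95.2 CPM (-3.24 ± 0.54, adjusted p = 3.4e-05). In all 3 genes, and in Nr4a2 (2.07, 1.04 and 5.76 CPM) and Egr1 (42.5, 32.9 and 77.1 CPM), Lat-/- library 2 was lowest and library 3 highest, the order also of the Lat transcripts left in those libraries (11.7, 9.91 and 17.2 CPM). The part of the remaining Lat transcripts was not tested. Cell type markers also differed at 20 h, without overlap for 7 of the 8 lists (all but myeloid markers). Naive T cell markers summed to 2370 to 2500 CPM in WT and 10200 to 11800 CPM in Lat-/- libraries, genes of T cells to 3180 to 3620 and 5370 to 6130 CPM, regulatory T cell markers to 54.7 to 59.5 and 25.2 to 34.2 CPM, and NK cell markers to 35.4 to 47.9 and 61.0 to 95.8 CPM. The sums for γδ T cells were 6.42 to 7.48 and 8.34 to 10.8 CPM, for CD8 T cells 12.4 to 13.8 and 19.5 to 27.5 CPM, and for B cells 3 to 3.91 and 1.72 to 1.82 CPM. Their part was not tested.

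Nr4a2 (-2.86 ± 0.39), Egr1 (-2.06 ± 0.33), Egr2 (-2.68 ± 0.58) and Nab2 (-2.32 ± 0.20) were lower at 20 h as well, with an adjusted p after filtering of at most 0.000446. Egr2 was at 0.152, 0.0371 and 0.757 CPM in Lat-/- cells at 20 h, the widest scatter of the 8 genes there. Leaving out replicate 3 moved 5 estimates by more than 1.5-fold, each further from 0: over all genes Egr2 was then at -4.45, Egr3 at -4.45, Nr4a3 at -4.44, Nr4a1 at -4.00 and Nr4a2 at -3.67. Nab1 went the other way, at 47.6, 47.8 and 41.6 CPM in WT and 67.4, 66.2 and 54.8 CPM in Lat-/- cells, with no overlap but under the fold threshold (0.46 ± 0.11, adjusted p = 0.00119). In Lat-/- cells Nab1 did not pass the thresholds between 0 h and 20 h (log2 -0.40, adjusted p = 0.0765 over all genes).

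All 8 genes were lower at 20 h than at 4 h in Lat-/- cells too (2.1% of all genes called lower). Against 0 h, 6 were called higher (2.14% of all genes): Nr4a1, Nr4a2, Nr4a3, Egr2, Egr3 and Nab2. Egr3 (3.87 ± 0.38 after filtering), Nr4a3 (2.78 ± 0.35, or 2.15 over all genes without replicate 3), Nr4a2 (2.26 ± 0.53) and Nab2 (1.33 ± 0.20) had every 20 h library above every 0 h library. For Nr4a1 and Egr2 the libraries overlapped and the calls depended on the fit. After filtering, the Nr4a1 estimate of 1.05 ± 0.51 had an adjusted p of 0.165, and that of Egr2 (22 reads at 20 h against 3 at 0 h, ratio of CPM 6.9, 95% counting interval 2.07 to 36) an adjusted p of 0.0758. Over all genes, the Egr2 estimate of 2.66 was 3.27 without replicate 2 and 1.66 without replicate 3 (adjusted p = 0.632). The interaction at 20 h was called for Nr4a2 (-1.33, adjusted p = 0.000287; 9.35% of all genes called lesser), a call that did not hold after filtering (± 0.72, adjusted p = 0.126).

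Without LAT, the share of Egr3 in the EGR transcripts was 4.16% at 0 h, 38.4% at 4 h and 26.4% at 20 h, beside 22.2%, 41.0% and 55.7% in sorted WT cells, and Egr1 remained the main EGR transcript at 20 h (73.2%). Nr4a1 made up 88.1%, 75.1% and 79.7% of NR4A transcripts in Lat-/- cells and 88.7%, 73.9% and 75.6% in WT cells. The share of Nr4a2 at 4 h was 4.75 ± 0.291% (SD, n = 3) in Lat-/- and 6.98 ± 0.617% in WT cells. The summed levels were 7.97, 455 and 18.9 CPM per kilobase for NR4A and 7.98, 106 and 15.7 for EGR in Lat-/- cells at 0, 4 and 20 h, against 40.3, 3030 and 190 and 32.5, 597 and 109 in WT cells.

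**Figure D5:**
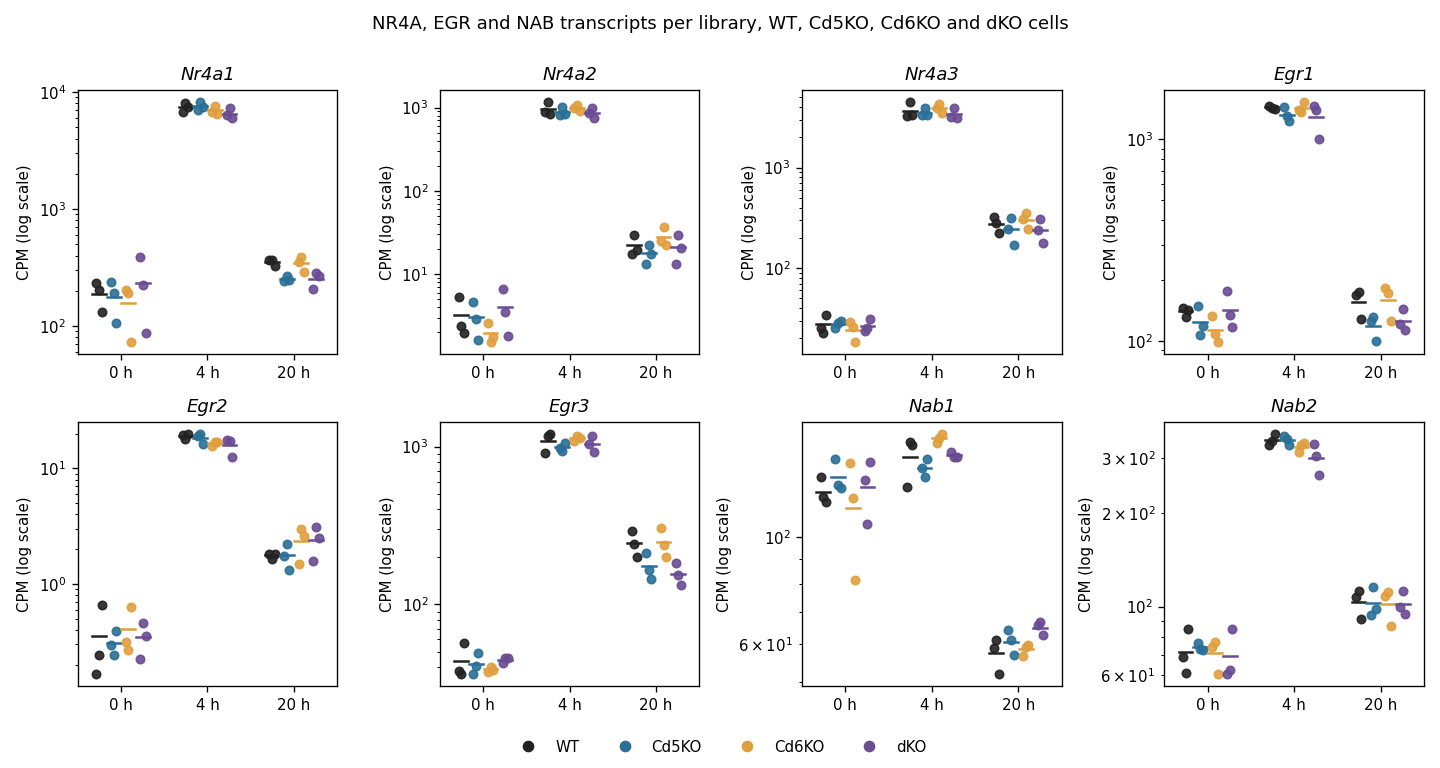
Level in CPM (log scale) of the 8 genes in each library of the CD5/CD6 experiment at 0, 4 and 20 h, with short lines for means, for WT, Cd5-/-, Cd6-/- and Cd5-/-Cd6-/- cells (labelled Cd5KO, Cd6KO and dKO). At 20 h the Cd5-/-Cd6-/- libraries lie below WT for Nr4a1 and Egr3 and above WT for Nab1, and the Cd5-/- libraries lie below WT for Nr4a1. At 4 h the Cd6-/- and Cd5-/-Cd6-/- libraries lie below WT for Egr2. For other genes and times the knockouts overlap WT. How many of all genes stand apart from WT in this way was not counted.

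In the CD5/CD6 experiment each knockout induced the same 7 genes at 4 h, Nab1 again being the exception. Of all genes, 8.2% (Cd5-/-), 7.72% (Cd6-/-) and 7.57% (Cd5-/-Cd6-/-) were called higher. At 20 h, Nr4a2, Nr4a3, Egr2 and Egr3 were called higher than at 0 h in each knockout (12.5%, 11.4% and 12.3% of all genes). Nr4a1 was added in Cd6-/- cells (log2 1.14, and 0.90 without replicate 3, under the threshold). Nab1 was called lower in Cd5-/- cells (log2 -1.14), and with estimates of -0.96 and -0.97 (adjusted p = 1.63e-07 and 1.34e-07) it just missed the fold threshold in Cd6-/- and Cd5-/-Cd6-/- cells, where 5 of 12 settings called it, DESeq2 among them (17.5%, 16.8% and 18% of all genes were called lower). Without the 0 h libraries that went against their labels, the 7 calls at 4 h and 5 calls at 20 h in Cd5-/- and in Cd6-/- cells were made for the same genes.

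Against WT cells, 0 of the 8 genes were called at any time in any of these genotypes by edgeR or by DESeq2. Few genes of any kind were called by edgeR with all libraries kept: 0.0619%, 0.0743% and 0.0186% of all genes at 0, 4 and 20 h for Cd5-/-, 0%, 0.0031% and 0.0186% for Cd6-/-, and 0.0248%, 0.0434% and 0.0434% for Cd5-/-Cd6-/- cells. Without the 0 h libraries that went against their labels, more genes were called. At 0 h they were 209 of 32036 for Cd5-/- (20 of 32290 with these libraries) and 20 for Cd6-/- cells (0 with them). At 4 h they were 135 for Cd5-/- (24 with them) and 31 for Cd6-/- cells (1 with them). At an unadjusted p under 0.05 stood 6 of the 72 member values: Nr4a1, Egr1 and Egr3 in Cd5-/- cells at 20 h, Nr4a1 and Egr3 in Cd5-/-Cd6-/- cells at 20 h, and Nr4a2 in Cd6-/- cells at 0 h. That is 8.33% of the member values, beside 2.45% of all genes over the 9 comparisons (1.68% to 3.39% in each). The 2 shares are not alike, since all genes include those with as little as 1 read, and filterByExpr kept 16143 of 32290. The member values also share WT libraries. These p-values come from the fit over all genes, which leaned on the spread of genes in general. Its prior degrees of freedom were 50.9, against 24 from the libraries. After filterByExpr (4.73), 95% intervals of Nr4a1 at 20 h included 0 in Cd5-/- (-1.17 to 0.20) and Cd5-/-Cd6-/- cells (-1.18 to 0.19). That of Nr4a2 in Cd6-/- cells at 0 h (-1.52 to 0.17) did too, and those of Egr1 and Egr3 did not. At 4 h the Nr4a1 peak of 6970, 8180 and 7440 CPM (Cd5-/-), 6710, 7640 and 6510 CPM (Cd6-/-) or 6310, 7300 and 6000 CPM (Cd5-/-Cd6-/-) overlapped that of WT cells (6690, 8010 and 7510 CPM). The log2 difference of Nr4a1 in Cd5-/-Cd6-/- cells was -0.18 with a 95% interval from -0.66 to 0.31, or from -0.87 to 0.50 after filtering.

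The estimate farthest from 0 was that of Nr4a2 in Cd6-/- cells at 0 h (log2 -0.67, adjusted p = 1, or 0.000829 and under the fold threshold without replicate 3). It rests in part on Cd6-/- library 2, which went against its label, and ranged from -0.86 to -0.41 over 12 settings. At 20 h, Egr3 and Nr4a1 had estimates below 0 in cells without CD5. Egr3 was at 293, 240 and 200 CPM in WT, 183, 154 and 133 CPM in Cd5-/-Cd6-/-, 213, 165 and 144 CPM in Cd5-/- and 303, 238 and 201 CPM in Cd6-/- cells. All Cd5-/-Cd6-/- libraries were below all WT libraries (log2 -0.64 ± 0.17, 95% interval -0.98 to -0.31), with an adjusted p of 0.31 that ranged from 0.00028 without replicate 3 to 0.937 without replicate 2. The estimate itself stayed between -0.66 and -0.62, and with a replicate block its adjusted p was under 0.05. Nr4a1 at 20 h was at 370, 369 and 327 CPM in WT, 206, 282 and 266 CPM in Cd5-/-Cd6-/- (log2 -0.50, 95% interval -0.98 to -0.02) and 245, 268 and 249 CPM in Cd5-/- cells (log2 -0.48, -0.97 to 0.00), below all WT libraries in both genotypes, with an adjusted p of 1 (without replicate 3, 0.00064 and 0.00878, under the fold threshold). After filtering, the intervals of Nr4a1 in Cd5-/-Cd6-/- and Cd5-/- cells at 20 h were wider and included 0. Cd6-/- cells had 356, 386 and 291 CPM of Nr4a1, overlapping WT. How many of all genes stood apart from WT in this way was not counted in this experiment. Markers of other cells also differed at 20 h. The γδ T cell markers (6 listed) summed to 5.31 to 7.53 CPM in WT, 13 to 14.4 CPM in Cd5-/-, 13.6 to 20.7 CPM in Cd5-/-Cd6-/- and 4.38 to 7.51 CPM in Cd6-/- cells. For naive T cell markers (6 of 6) these sums were 1590 to 1830, 1340 to 1420, 1340 in each library and 1650 to 1860 CPM, so that at 20 h both lists stood apart from WT in the same genotypes as Nr4a1. At 4 h, when Nr4a1 overlapped WT, γδ T cell markers also stood apart in these genotypes. They summed to 58.9 to 65.7 CPM in Cd5-/- and 68.2 to 92.9 CPM in Cd5-/-Cd6-/- cells, against 24.5 to 31.6 CPM in WT cells. The naive T cell markers overlapped WT at 4 h. Of the 8 lists, 3 did not overlap WT in Cd5-/- cells at 20 h (B cells the other one), 3 in Cd5-/-Cd6-/- cells (genes of T cells the other one) and 0 in Cd6-/- cells. Their part was not tested.

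The responses to stimulation did not differ from WT past the thresholds for any of the 8 genes in Cd5-/-, Cd6-/- or Cd5-/-Cd6-/- cells, by edgeR or DESeq2. Of all genes, the shares called in either direction at 4 h and at 20 h were 0.0031% and 0.0031% (Cd5-/-), 0% and 0.0031% (Cd6-/-), and 0% and 0% (Cd5-/-Cd6-/-). At an unadjusted p under 0.05 were 3 of 48 member values: Nr4a2 in Cd6-/- cells and Nr4a1 and Egr3 in Cd5-/-Cd6-/- cells, all at 20 h. That is 6.25% of the member values, beside 2.09% of all genes over the 6 comparisons, which again include genes with as little as 1 read. The estimates farthest from 0 were 1.02 for Nr4a2 in Cd6-/- cells and -0.82 for Nr4a1 in Cd5-/-Cd6-/- cells, both at 20 h with an adjusted p of 1. Without replicate 3, each passed the thresholds (1.27 with adjusted p = 4.56e-05, and -1.11 with adjusted p = 1.07e-06). The Cd6-/- libraries left at 0 h then included number 2, which went against its label. Each was called in 1 of 12 settings, with estimates of 0.69 to 1.27 for Nr4a2 and -1.11 to -0.26 for Nr4a1. Without the 0 h libraries that went against their labels, 0 of the 8 genes were called in Cd5-/- or Cd6-/- cells at 0 h or in the responses.

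Other genes of the pathway were followed in 4 lists taken from textbook knowledge. Of 14 regulators known to act on NR4A or EGR promoters (SRF and its partners, MEF2, CREB and their corepressors), 1 was higher and 4 lower at 4 h in sorted WT cells, where 8.05% of all genes were called higher and 9.29% lower. The median log2 fold change of the list was -0.02, and that of all genes was 0 in each comparison of these lists. Hdac5 and Hdac7, class II deacetylases that hold MEF2 silent, fell by 1.05 and 1.25 on the log2 scale. Mef2c and Mef2b had at most 2.80 and 0.938 CPM in any of these libraries. In Lat-/- cells at 4 h, Hdac7 fell by 1.62 while Hdac5 was at 37.9 to 47.8 CPM at 0 h and 59.5 to 66.8 CPM at 4 h (log2 0.61, not called). In Lat-/- against WT cells, 1 of the 14 regulators was lower at 4 h, and 6 were higher and 1 lower at 20 h. Of all genes, 5.51% were higher and 6.23% lower at 4 h in that comparison, and 12.1% and 12.3% at 20 h.

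Of 16 other immediate early genes, 8 rose and 3 fell at 4 h in sorted WT cells (median log2 1.09) and 2 rose and 4 fell in Lat-/- cells (median 0.25), where 3.08% of all genes were called higher and 3.62% lower. Myc, the growth regulator, rose from 143 to 164 CPM at 0 h to 975 to 1260 CPM at 4 h in WT cells (log2 2.95), whereas Lat-/- cells had 109 to 119 CPM at 0 h and 116 to 175 CPM at 4 h (log2 0.28, adjusted p = 0.238). Dusp2, a phosphatase of ERK, rose in WT cells (log2 2.36) and was at 0.64 in Lat-/- cells, below the fold threshold. Atf3, a stress factor, was at or near 0 reads before stimulation (at most 0.21 CPM in WT and 0.14 CPM in Lat-/- cells) and rose in both, to 35.5 to 48.4 CPM and to 12.7 to 17.5 CPM at 4 h. Egr4, a further EGR family gene, rose in WT cells to 2.47 to 3.28 CPM and stayed at or below 0.166 CPM at 4 h in Lat-/- cells. At 4 h, 9 of the 16 genes were lower and 1 higher in Lat-/- than in WT cells.

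Of 14 genes reported as EGR targets in T cells, 7 rose and 2 fell at 4 h in sorted WT cells (median log2 1.16) and 5 rose and 1 fell in Lat-/- cells (median 0.62). Tnfrsf9 (4-1BB, a costimulatory receptor) went from 25.0 to 27.9 CPM to 1400 to 1950 CPM in WT and from 2.66 to 4.07 CPM to 119 to 167 CPM in Lat-/- cells, so that the log2 responses were 5.96 and 5.53. Cdkn1a (the cell cycle inhibitor p21) rose by 8.72 and 4.63 and Fasl (a death ligand) by 3.88 and 1.63. Socs3, a cytokine signaling inhibitor that is also in the handling set, fell in both (by 2.98 and 1.53 on the log2 scale) and was higher in Lat-/- than in WT cells at 4 h (log2 2.53).

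Of 8 genes linked to NR4A factors in tolerant or exhausted T cells, 5 rose and 0 fell at 4 h in sorted WT cells by edgeR (median log2 1.03), and 2 rose in enriched WT cells. Pdcd1 (PD-1) went from 7.80 to 11.8 CPM to 425 to 536 CPM in WT cells and from 2.52 to 5.37 CPM to 28.8 to 52.0 CPM in Lat-/- cells (log2 5.63 and 3.52). Tox2 rose in WT cells from 0.588 to 1.68 CPM to 4.45 to 7.79 CPM (log2 2.65) and was at 0.822 to 1.78 CPM in Lat-/- cells at 4 h (log2 0.35, not called). Tox rose by 1.06, just past the fold threshold, and Havcr2 had at most 0.641 CPM. In Lat-/- against WT cells, 4 of the 8 genes were lower at 0 h and at 4 h and 3 at 20 h, and none were higher (0.148% of all genes were called higher at 0 h). These lists overlap with the handling set and were not tested as sets.

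The genes whose pattern was most like each member were found among 9604 genes by Pearson's r of mean log2 CPM. It was taken over 12 conditions (CD5/CD6 experiment) and 6 conditions (LAT experiment) that share the sharp change at 4 h. The members themselves were left out of this ranking. Among genes outside the members, Nr4a1 was most like Trib1 (r = 0.988 and 0.988), Traf1 (0.973 and 0.978) and Trp53inp2 (0.971 and 0.988). Nr4a2 was closest to Zfp948, Lgals7 and Traf1, and Nr4a3 to Ccr8, Slamf7 and Lgals7, all at 0.985 or above. For Egr1 these were Tgfb1 (0.991 and 0.988), Erf and Prnp, for Egr2 Ccr8, Slamf7 and Bend4, and for Egr3 Tnfrsf9 (0.986 and 0.987), Ptprf and Ccr8. Nab2 was closest to Sypl, Sh3bp2 and Cd83. Nab1 had another company (Tnks1bp1, Zc3h13 and Flii), and its r with the other members was between 0.205 and 0.627.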

How the data were processed

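Naive CD4+ T cells were studied in 36 libraries of the CD5/CD6 experiment and 18 of the LAT experiment, grouped by the deposited labels with 3 libraries per condition. The authors made stranded poly(A) libraries, mapped single reads to GRCm38 (STAR, after trimming by DimerRemover), and deposited raw featureCounts counts per gene, in 1 table per experiment, which were fitted separately. The annotation release and the use of strand were not given in the sources used here. Identifiers were matched to GENCODE (55144 of 55385).

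The main tests used edgeR 4.0.16, with DESeq2 1.42.0 as an alternative, under R 4.3.3. A gene needed at least 1 read over all libraries, TMM factors (0.876 to 1.17) scaled libraries, each condition had its own coefficient, and quasi-likelihood tests were adjusted over all genes by Benjamini-Hochberg. Calls needed both a change of more than 2-fold and an adjusted p below 0.05. SE was the absolute log2 fold change over the square root of F. CPM used TMM-scaled totals. The members and gene lists were chosen with earlier results of these data known. The named genes were the 8 members, Cd5, Cd6 and Lat, up to 4 genes per list with the highest absolute log2 fold change at 4 h among those called in sorted WT cells, and for each member the 3 genes with the highest lower r of both experiments (log2 CPM with a prior count of 2, a mean of at least 50 counts, no Gm or Rik models). Motifs were searched on both strands of 250 upstream bases. The code was tested on simulated counts. Alternatives were DESeq2, RLE factors, library totals, filterByExpr, fits of the compared groups alone, a replicate block, fits without each replicate or without the 0 h libraries that went against their labels, and adjusted p alone. Extending these to the list counts was chosen after seeing the data. Depth limits precision most for Egr2, and counting intervals cover counting error only.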

Additional observations from a re-analysis of the deposited data

Results flagged for a closer look

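The difference between the responses of Lat-/- and WT cells had an adjusted p under 0.05 in edgeR's fit over all genes for 4 members at 4 h and 6 at 20 h, including differences under the fold threshold. At 4 h, the Lat-/- response minus the WT response on the log2 scale was 2.06 for Egr3, 0.67 for Nab2, -0.72 for Egr1 and -1.75 for Nr4a2. At 20 h it was 0.80 for Egr3, 0.76 for Nab1, 0.62 for Nab2, -0.62 for Nr4a3, -0.96 for Nr4a1 and -1.33 for Nr4a2. The value for Egr3 at 20 h was 1.35 without replicate 2, and that for Nr4a3 was -1.34 without replicate 3. After filterByExpr, Egr3 at 4 h (adjusted p = 0.00267) and Nab1 at 20 h (adjusted p = 0.000449, 0.77 ± 0.16) stayed under 0.05, and the other values of this family ranged from 0.057 (Nab2 at 20 h) to 0.27 (Nr4a1 at 20 h).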

How the results depend on the processing

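Of 120 member values called, 1239 of 1255 alternative values kept the call and its direction, 16 lost the call and none reversed; of 160 not called, 39 alternative values became calls, over 11 alternatives. The replicate block left all member counts as they were (such as 7 and 7, 5 and 5, 8 and 8). Over all genes it raised some counts of calls, such as 20 to 61 for Cd5-/- against WT cells at 0 h. Deviations of same-numbered libraries correlated at a mean r of 0.324 in the CD5/CD6 experiment (172 of 198 pairs above 0.1, against a mean of -0.158 for different numbers) and 0.0927 in the LAT experiment (19 of 45, against -0.0438), and 34 of 36 and 16 of 18 libraries were closest to their own number. Since not every pair was above 0.1 and the labels give the numbers no meaning, they were not taken as pairs. The p-values without the block thus include spread that same-numbered libraries share. With the replicate block, Egr3 in Cd5-/-Cd6-/- against WT cells at 20 h had an adjusted p of 0.0314 (0.31 without it), with the same log2 fold change of -0.64, under the fold threshold. With adjusted p alone, 8 members (in place of 5) were called in Cd6-/- cells at 20 h against 0 h, and 4 (in place of 2) and 6 (in place of 1) in the Lat-/- interaction at 4 h and 20 h. That interaction gave 1 (4 h) and 0 (20 h) members after filterByExpr and with DESeq2, 2 at 20 h with library totals, and 2 to 2 at 20 h without any 1 replicate, a different gene joining Nr4a2 each time: Nr4a1 without replicate 1 (-1.07), Egr3 without replicate 2 (1.35) and Nr4a3 without replicate 3 (-1.34). Leaving out 1 replicate gave 0 to 1 members in the interactions at 20 h of Cd6-/- and of Cd5-/-Cd6-/- cells.

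For the pathway lists, adjusted p alone gave 7 upstream regulators (2 with the fold threshold) and 4 NR4A-linked genes (2) at 4 h in enriched WT cells, 9 regulators (5) at 4 h in sorted WT cells, 8 regulators (2), 10 immediate early genes (6) and 10 EGR targets (6) at 4 h in Lat-/- cells, and in Lat-/- against WT cells 1 regulator (0) and 1 immediate early gene (0) at 0 h, 7 regulators (1) at 4 h, and 11 regulators (7) and 5 NR4A-linked genes (3) at 20 h. Library totals gave 4 regulators in enriched and 2 NR4A-linked genes in sorted WT cells at 4 h, and 2 regulators in Lat-/- against WT cells at 4 h, as did filterByExpr and the fit of the compared groups alone. After filterByExpr, 3 NR4A-linked genes were called in sorted WT cells at 4 h (3 with DESeq2), 3 EGR targets in Lat-/- against WT cells at 0 h, and 2 NR4A-linked genes there (2 with DESeq2). Without 1 replicate, the regulators called at 4 h were 2 to 5 in sorted WT and 1 to 3 in Lat-/- cells and 1 to 2 in Lat-/- against WT cells, NR4A-linked genes at 4 h in sorted WT cells 2 to 4, and EGR targets in Lat-/- against WT cells at 0 h 3 to 5. The causes were not tested. Spearman's rho in place of r named other genes as most like the members.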
